A study of Homo sapiens with 6 samples.

Results

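Chemokines are small secreted proteins that bind receptors on leukocytes and guide their migration. In epithelial tumour cells the genes fall into 2 main regulatory groups. CXCL1, CXCL2, CXCL3, CXCL5, CXCL8 and CCL20 are known targets of NF-kappaB, the transcription factor of inflammatory signalling, and the CXC genes among them encode neutrophil attractants that bind CXCR2. CXCL10, CXCL11 and CCL5 are known targets of interferon signalling and of interferon regulatory factors, and they attract T cells through CXCR3 (CXCL10 and CXCL11) or CC receptors (CCL5). CX3CL1, a membrane-anchored chemokine that is cleaved to a soluble form, responds to both pathways and was kept apart.

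The transcripts of these 10 chemokine genes, chosen by name among the 19402 genes of the count table, were examined in CFPAC1, a human line of pancreatic ductal adenocarcinoma. A set of 3 libraries, labelled IRF1-KO, came from pools of clones that had received the lentiCRIPSv2 plasmid (named so in the labels) with Cas9 and a guide RNA against IRF1, the gene of interferon regulatory factor 1. The other 3, labelled WT, came from pools of clones isolated after infection with the same plasmid, with no guide named. All cells were grown in IMDM with serum, and no stimulus is named for them. Clones were isolated by dilution, so differences among clones can enter every pool, and the labels do not say whether pools were grown on separate occasions. P-values therefore measure the spread between these pools.

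Total counts ranged from 16413682 to 28258075 in libraries labelled IRF1-KO and from 18394715 to 21003927 in WT libraries, so that 1 CPM (counts scaled to library size, here with TMM factors) stood for 16.4 to 28.6 counts. IRF1 transcript levels were 117, 123 and 132 CPM in IRF1-KO libraries and 87.3, 91.3 and 82.6 CPM in WT libraries, so the transcript was not lower under the knockout label. These counts therefore do not check the knockout. Every direction given here follows the label and not a checked loss of IRF1. All 6 epithelial markers were present, with summed levels of 4777 to 6578 CPM in IRF1-KO and 4131 to 6824 CPM in WT libraries. Single markers differed among pools. WT replicate 3 was the lowest library for CDH1 (107 CPM), KRT7 (157 CPM) and EPCAM (197 CPM). The other WT pools had 378 to 499 CPM of CDH1, 480 to 508 CPM of KRT7 and 414 to 424 CPM of EPCAM. KRT19 was lowest in IRF1-KO replicate 1. Of 8 leukocyte markers, CD68 made up most of the summed level (130 to 157 CPM in IRF1-KO, 129 to 187 CPM in WT), while CSF3R and MS4A1 had no count and PTPRC stayed at or under 0.122 CPM in every library. Fibroblast markers summed to 35.2 to 76.4 CPM in IRF1-KO and 32.4 to 50.04 CPM in WT libraries, mostly COL1A1, and endothelial markers to 6.98 to 8.17 CPM in IRF1-KO and 5.31 to 7.21 CPM in WT libraries. The part of these levels in the results was not tested. Bulk counts cannot tell fewer expressing cells from less RNA per cell.

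Sequence before the start site sets the 2 regulatory groups side by side. Promoters of 8 of the 10 genes were found in the RefSeq table (GRCh38.p14), which runs from 250 bases before the start to 50 after it; CX3CL1 and CCL5 had no entry. The letters GGAATTTCC, an NF-kappaB-type sequence chosen after these promoters were read, occurred on either strand in 7 of the 8, against 0.461% of 35116 promoters of the same length. The exception was CCL20, which matched only the looser NF-kappaB form, GGG and CC with any 5 bases between them, held by 8 of the 8 and by 58.7% of all promoters. The looser form can overlap the first. The 7 genes with GGAATTTCC include the interferon-driven CXCL10 and CXCL11, so these letters do not separate the 2 regulatory groups. The IRF-type sequence, GAAA repeated after any 2 bases, occurred on either strand in 1 of the 8, CXCL10, against 3.57% of all promoters. The STAT-type letters TTCNNNGAA occurred in CXCL5, where they overlap GGAATTTCC, and in CXCL11, against 7.66%. A match describes letters and is not evidence of binding.

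The first 5 sequences are shown because the CXC genes share the same 9 letters at nearly the same place. They are the 120 bases before the start, 5′ to 3′ on the gene's strand, with GGAATTTCC in capitals. CXCL1 spans chr4:73869273-73869392 (plus strand), CXCL2 chr4:74099196-74099315 (minus), CXCL3 chr4:74038690-74038809 (minus), CXCL5 chr4:73998678-73998797 (minus) and CXCL8 chr4:73740449-73740568 (plus).
CXCL1: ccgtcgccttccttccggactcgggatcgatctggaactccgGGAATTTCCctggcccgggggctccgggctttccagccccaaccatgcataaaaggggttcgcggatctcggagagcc
CXCL2: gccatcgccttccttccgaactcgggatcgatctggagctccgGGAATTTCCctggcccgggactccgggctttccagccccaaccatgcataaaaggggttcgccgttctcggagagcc
CXCL3: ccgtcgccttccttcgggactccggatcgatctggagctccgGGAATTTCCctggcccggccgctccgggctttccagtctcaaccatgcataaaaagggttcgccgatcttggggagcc
CXCL5: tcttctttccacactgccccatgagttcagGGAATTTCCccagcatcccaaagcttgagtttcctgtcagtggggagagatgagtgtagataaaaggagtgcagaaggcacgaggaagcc
CXCL8: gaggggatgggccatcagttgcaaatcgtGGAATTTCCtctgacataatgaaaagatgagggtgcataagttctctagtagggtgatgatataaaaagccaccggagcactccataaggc
Counted from the start, the match began at −78 in CXCL1 and CXCL3, −77 in CXCL2, −90 in CXCL5 and −91 in CXCL8. Over the aligned positions of these 120 bases CXCL1 was 93.4% identical to CXCL2 and 90.8% identical to CXCL3, whereas CXCL1 was 51.9% identical to CXCL5 and 43.6% identical to CXCL8.

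The next 3 sequences show CCL20 beside the interferon-driven pair. CCL20 is given for 120 bases (chr2:227813722-227813841, plus strand), and CXCL10 (chr4:76023498-76023747, minus) and CXCL11 (chr4:76036071-76036320, minus) for 250 bases. Capitals mark matches to either NF-kappaB form on either strand and, in CXCL10, also the IRF-type match GAAAGTGAAA from −221 to −212.
CCL20: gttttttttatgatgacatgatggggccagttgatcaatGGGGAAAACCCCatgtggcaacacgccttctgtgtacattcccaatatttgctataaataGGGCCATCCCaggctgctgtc
CXCL10: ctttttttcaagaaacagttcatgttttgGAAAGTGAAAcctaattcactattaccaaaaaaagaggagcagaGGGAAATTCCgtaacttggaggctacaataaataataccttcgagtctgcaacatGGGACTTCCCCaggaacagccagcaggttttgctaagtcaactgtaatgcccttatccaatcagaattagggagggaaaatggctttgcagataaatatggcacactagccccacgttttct
CXCL11: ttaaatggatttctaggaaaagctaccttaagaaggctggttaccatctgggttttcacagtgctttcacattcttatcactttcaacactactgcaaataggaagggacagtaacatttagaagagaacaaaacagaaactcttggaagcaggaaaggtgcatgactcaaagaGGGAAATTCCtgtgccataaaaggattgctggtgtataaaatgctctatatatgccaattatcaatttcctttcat
The count table draws CCL20 and CXCL11 with further exons upstream of these starts. It also counts the whole CXCL3 span of 2219 bases, up to 74038807, as exon. That span takes in nearly all of the printed CXCL3 bases, GGAATTTCC included. The counted CXCL8 span starts at 73740541 and the counted CXCL2 span ends at 74099196, both inside the printed bases. The windows therefore describe the RefSeq starts only.

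No tested chemokine gene differed between the libraries labelled IRF1-KO and the WT libraries beyond the spread between pools. Of the 10 genes, 9 were counted deeply enough to be tested, and CCL5 was not. With the edgeR quasi-likelihood test, 0 of the 9 reached an adjusted p under 0.05 (Benjamini-Hochberg), against 0.127% of the 13388 genes tested (0.112% lower and 0.0149% higher). None of the 9 was at an unadjusted p under 0.05, where 9.14% of tested genes stood, and DESeq2 called none of them, against 2.48%. The levels of the 2 groups overlapped for all 10 genes, whereas 14.8% of tested genes had no overlap (6.75% with every IRF1-KO library below every WT library and 8.03% above).

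**Figure D1:**
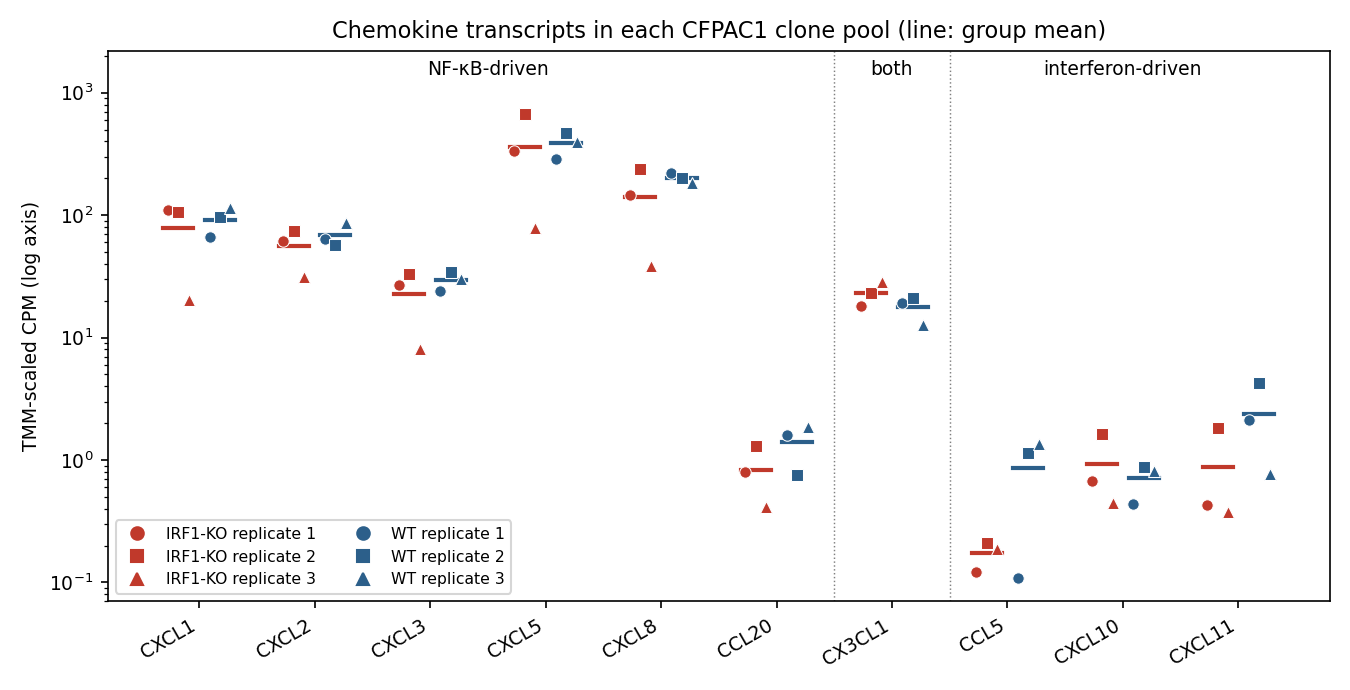
Level of each chemokine gene in each clone pool, in TMM-scaled CPM on a log axis, with IRF1-KO pools (red) left of WT pools (blue), a marker shape per replicate number and a line at each group mean (n = 3 per group). For the 5 CXC genes on the left, IRF1-KO replicate 3 lies below all other libraries, while the groups overlap for every gene.

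Among the 10 genes, the 5 CXCR2 ligands had the highest group means per length. CXCL5 (ENSG00000163735.7; GRCh38 chromosome 4, 73995642 to 73998677, minus strand), a neutrophil attractant of epithelial cells, had 332, 669 and 79.2 CPM in IRF1-KO replicates 1 to 3, against 286, 472 and 399 CPM in WT replicates 1 to 3. IRF1-KO replicate 2 was the highest library and IRF1-KO replicate 3 the lowest, with all WT pools between them. The log2 fold change was −0.098 ± 0.66 (SE; 95% interval −1.67 to 1.47; edgeR adjusted p = 0.978). CXCL8 (ENSG00000169429.11; chromosome 4, 73740541 to 73743716, plus strand), the gene of interleukin-8, had 146, 238 and 38.7 CPM in IRF1-KO replicates 1 to 3, against 220, 202 and 184 CPM in WT. The WT pools lay close together, and the IRF1-KO pools spanned a 6.15-fold range on both sides of them. The log2 fold change of CXCL8 was −0.52 ± 0.56 (SE; interval −1.85 to 0.81; edgeR adjusted p = 0.854), and without IRF1-KO replicate 3 it was −0.073.

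CXCL1, CXCL2 and CXCL3 encode close relatives that also act through CXCR2. CXCL1 (ENSG00000163739.4; chromosome 4, 73869393 to 73871242, plus strand) had 109, 106 and 20.2 CPM in IRF1-KO replicates 1 to 3, against 65.7, 96.1 and 114 CPM in WT. CXCL2 (ENSG00000081041.9; chromosome 4, 74097040 to 74099196, minus strand) had 61.3, 74.8 and 31.4 CPM in IRF1-KO, against 64.0, 57.3 and 85.5 CPM in WT. CXCL3 (ENSG00000163734.4; chromosome 4, 74036589 to 74038807, minus strand) had 26.8, 33.3 and 8.13 CPM in IRF1-KO, against 24.2, 34.2 and 30.04 CPM in WT. In all 3 genes IRF1-KO replicates 1 and 2 lay within the WT range and IRF1-KO replicate 3 lay below it. The log2 fold changes were −0.23 ± 0.58 for CXCL1 (interval −1.61 to 1.16), −0.31 ± 0.31 for CXCL2 (interval −1.04 to 0.43) and −0.38 ± 0.46 for CXCL3 (interval −1.48 to 0.72), with SE. Their edgeR adjusted p-values were 0.948 for CXCL1, 0.844 for CXCL2 and 0.879 for CXCL3. The 3 transcripts resemble each other: 5.73% of the 50-base windows of the longest coding transcript of CXCL1, 9.24% of those of CXCL2 and 5.26% of those of CXCL3 occur in another of the 3, so reads from these stretches may be lost or misplaced.

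CCL20, the ligand of CCR6, was a low transcript. CCL20 (ENSG00000115009.13; chromosome 2, 227805739 to 227817564, plus strand) had 13, 37 and 11 counts in IRF1-KO replicates 1 to 3 (0.793, 1.29 and 0.412 CPM), against 29, 14 and 39 counts in WT (1.59, 0.762 and 1.87 CPM). IRF1-KO replicate 3 was again the lowest library, and the groups overlapped. The log2 fold change was −0.75 ± 0.53 (SE; interval −1.97 to 0.47; edgeR adjusted p = 0.763).

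All 6 NF-kappaB-driven genes thus had a negative log2 fold change, with a median of −0.34, against −0.018 over all tested genes, of which 7141 of 13388 were negative. That median rested on IRF1-KO replicate 3: it was 0.0044 without that library and −0.84 without IRF1-KO replicate 2. Without IRF1-KO replicate 3 the log2 fold changes of CXCL1 (0.23), CXCL3 (0.028) and CXCL5 (0.38) were positive.

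CX3CL1 went against the CXC genes in IRF1-KO replicate 3. CX3CL1 (ENSG00000006210.7; chromosome 16, 57372477 to 57385044, plus strand) had 18.2, 23.2 and 28.3 CPM in IRF1-KO replicates 1 to 3, against 19.0, 21.2 and 12.8 CPM in WT. The library with the least CXCL8 had the most CX3CL1, and the groups overlapped. The log2 fold change was 0.40 ± 0.23 (SE; interval −0.14 to 0.94; edgeR adjusted p = 0.692), and it was positive in all 15 alternatives.

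The interferon-driven genes were near the limit of detection. CXCL10 (ENSG00000169245.6; chromosome 4, 76021118 to 76023497, minus strand) had 11, 47 and 12 counts in IRF1-KO replicates 1 to 3 (0.671, 1.64 and 0.449 CPM), against 8, 16 and 17 counts in WT (0.438, 0.870 and 0.817 CPM). IRF1-KO replicate 2 was the highest library and the rest were interleaved. The log2 fold change of CXCL10 was 0.39 ± 0.57 (SE; interval −0.93 to 1.71; edgeR adjusted p = 0.896), and −0.36 without IRF1-KO replicate 2. CXCL11 (ENSG00000169248.12; chromosome 4, 76033682 to 76041415, minus strand) had 7, 52 and 10 counts in IRF1-KO (0.427, 1.82 and 0.375 CPM), against 39, 78 and 16 counts in WT (2.13, 4.24 and 0.769 CPM). IRF1-KO replicates 1 and 3 lay below every WT pool, whereas IRF1-KO replicate 2 lay within the WT range. CXCL11 had the most negative log2 fold change of the tested chemokine genes, −1.40 ± 0.79 (SE; interval −3.25 to 0.44; edgeR adjusted p = 0.680), which was −2.56 without IRF1-KO replicate 2 and −0.69 without WT replicate 2. ART3 spans both genes on the opposite strand, with 0 exon bases in common.

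CCL5, a T cell attractant, was outside the test. CCL5 (ENSG00000271503.6; chromosome 17, 35871491 to 35880793, minus strand) had 2, 6 and 5 counts in IRF1-KO replicates 1 to 3 (0.122, 0.209 and 0.187 CPM), against 2, 21 and 28 counts in WT (0.109, 1.14 and 1.35 CPM). WT replicate 1 was the lowest library, so the groups overlapped, with WT replicates 2 and 3 above all others. With no filter on low counts its log2 fold change was −2.25 ± 0.80 (SE), with an edgeR unadjusted p of 0.0197 and adjusted p of 0.469. Of the 50-base windows of its longest coding transcript, 11.6% occur in transcripts of other genes. For the 2 tested interferon-driven genes the median log2 fold change was −0.51, against −0.34 for the NF-kappaB-driven group; with 2 tested genes of opposite sign, this median describes neither gene.

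**Figure D2:**
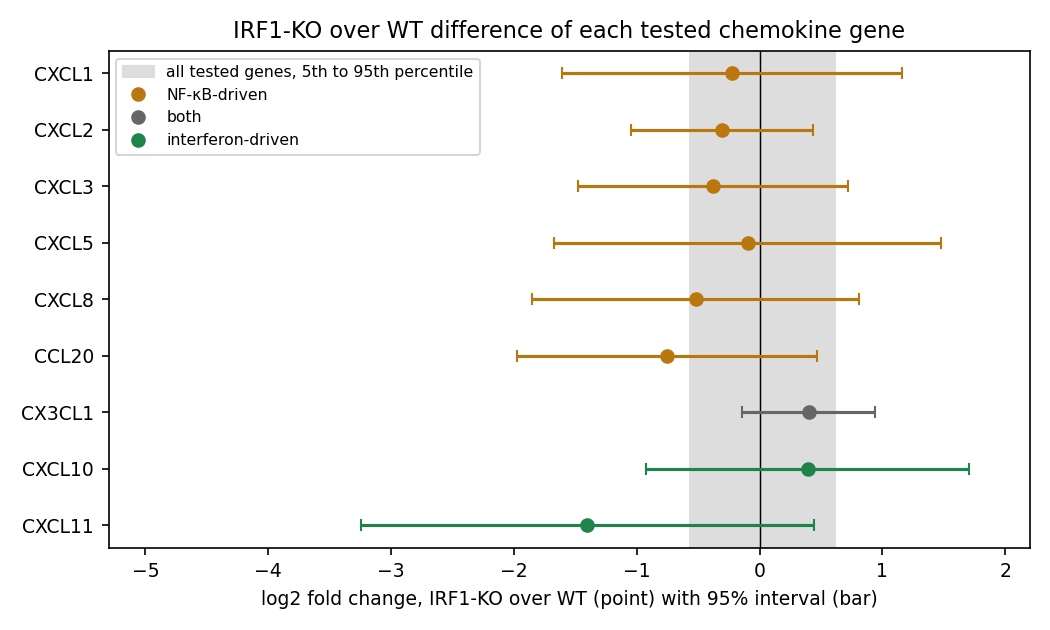
Log2 fold change of libraries labelled IRF1-KO over WT for the 9 tested chemokine genes (points) with 95% intervals (bars), coloured by regulatory group; the grey band covers the 5th to 95th percentile of all 13388 tested genes. Every interval includes 0, from CX3CL1 with the narrowest (−0.14 to 0.94) to CXCL11 with the widest (−3.25 to 0.44).

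These intervals show what the 6 libraries could not distinguish. For CXCL5 they run from 0.314-fold to 2.78-fold and for CXCL8 from 0.277-fold to 1.76-fold of the WT level. For CXCL10 the range is 0.527-fold to 3.26-fold, and for CXCL11 0.105-fold to 1.36-fold. A change of 2-fold in either direction was therefore not excluded for CXCL5. For CX3CL1 the interval was narrower, 0.905-fold to 1.92-fold.

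The CXC genes of the cluster differed more among the IRF1-KO pools than between the groups. The SD of log2 CPM over the 3 IRF1-KO libraries was 1.57 for CXCL5, 1.39 for CXCL1, 1.35 for CXCL8 and 1.09 for CXCL3, larger than that of 98.5% to 99.6% of all tested genes. For CXCL2 it was 0.65, larger than that of 93.7%. Over the WT libraries the SD was 0.37 for CXCL5, 0.41 for CXCL1, 0.13 for CXCL8 and 0.25 for CXCL3, and for CXCL8 only 26.9% of tested genes had a smaller value. CXCL11 varied widely in both groups, with an SD of 1.13 in IRF1-KO and 1.17 in WT libraries.

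IRF1-KO replicate 3 was the lowest library for each of them. The log2 CPM of this library minus the mean of the other IRF1-KO pools was −2.57 for CXCL5, −2.41 for CXCL1, −2.26 for CXCL8, −1.87 for CXCL3 and −1.11 for CXCL2. For the first 4 genes 0.202% to 0.500% of tested genes had a more negative difference, and over all tested genes the median difference was −0.0038. The same library had a difference of 0.46 for CX3CL1. In all, 7 of the 10 chemokine genes were lowest in IRF1-KO replicate 3, against 17.7% of tested genes; these are the 6 NF-kappaB-driven genes and CXCL11. This library had 26323782 counts in all; the part of depth or cell content in its low values was not tested.

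**Figure D3:**
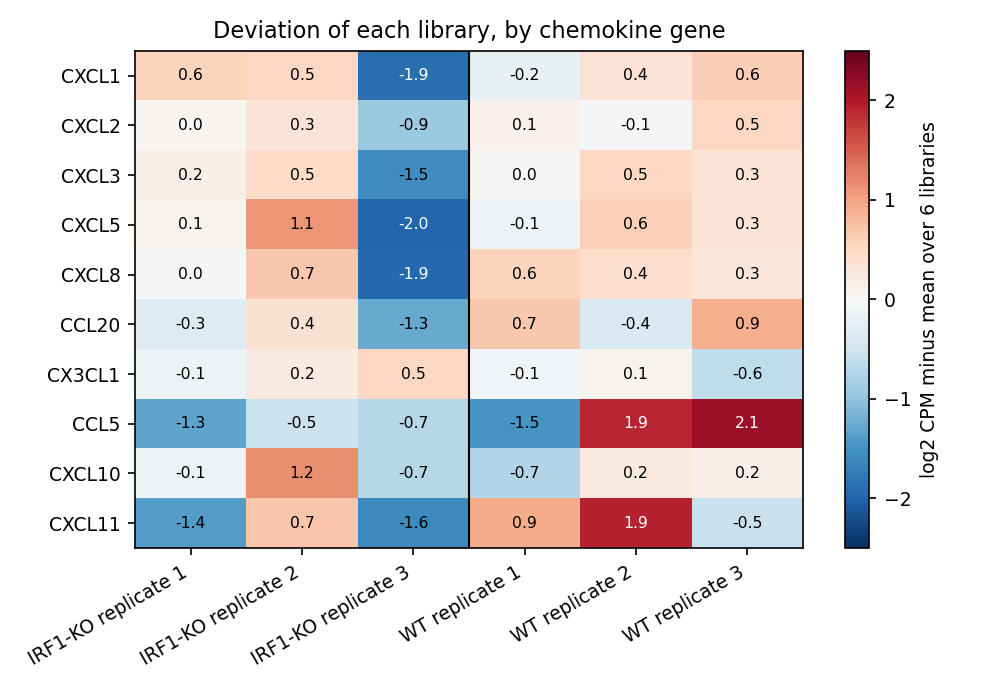
Deviation of each library from the mean over all 6 libraries, in log2 CPM, for each chemokine gene (rows; CCL5 rests on 2 to 28 counts), with the IRF1-KO pools left of the black line and the WT pools right of it; red is higher and blue is lower. The 5 CXC genes and CCL20 share a low value in IRF1-KO replicate 3, CX3CL1 is highest there, and CCL5 is high in WT replicates 2 and 3.

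Levels between genes were compared per length, in TPM (length-scaled shares of all transcripts), computed from the deposited counts and exon lengths. For CXCL3 the deposited length, 2219 bases, is its whole span, while its longest coding transcript has 1075 bases. The deposited length also exceeds that of the longest coding transcript for CXCL8 (2239 against 1705 bases) and CCL20 (1594 against 839 bases). The TPM of CXCL3, CXCL8 and CCL20 would be higher on the transcript length. The order, overlaps and separations given here, that of CXCL5 from CXCL8 included, therefore hold for the deposited lengths only. CXCL5 led in both groups, at 568 ± 465 TPM in IRF1-KO and 601 ± 159 TPM in WT (SD, n = 3 each). CXCL8 followed with 242 ± 171 TPM in IRF1-KO and 341 ± 27.0 TPM in WT, then CXCL1 with 234 ± 150 TPM in IRF1-KO and 269 ± 74.3 TPM in WT, CXCL2 with 154 ± 60.7 TPM in IRF1-KO and 186 ± 39.2 TPM in WT, and CXCL3 with 39.4 ± 22.6 TPM in IRF1-KO and 50.4 ± 9.74 TPM in WT. In WT pools the libraries of neighbours in this order overlapped between CXCL8, CXCL1 and CXCL2 and were separate between CXCL5 and CXCL8 and between CXCL2 and CXCL3. In IRF1-KO pools CXCL5, CXCL8, CXCL1 and CXCL2 each overlapped with the next, and CXCL2 was separate from CXCL3. Single IRF1-KO libraries departed from the order of the means: CXCL1 was above CXCL8 in replicate 1 (326 against 251 TPM), and CXCL2 was above CXCL8 in replicate 3 (86.6 against 66.7 TPM). CX3CL1 stood at 15.0 ± 3.26 TPM in IRF1-KO, overlapping with CXCL3, and at 11.2 ± 2.86 TPM in WT, separate from CXCL3. The other 4 genes had mean levels of 0.444 to 3.01 TPM in IRF1-KO and 2.21 to 4.76 TPM in WT, and neighbours in the WT order, from CX3CL1 down, overlapped. In IRF1-KO the gaps were between CX3CL1 and CXCL10 and between CXCL11 and CCL5.

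The 5 CXC genes together had 675, 1122 and 178 CPM in IRF1-KO replicates 1 to 3, against 659.5, 861 and 812 CPM in WT. CXCL5 made up 35.5% to 51.7% of the summed TPM in IRF1-KO pools and 36.3% to 46.8% in WT pools. CXCL3, by its deposited length, made up 2.82% to 4.002% in IRF1-KO and 3.31% to 3.72% in WT. CXCL8, also by its deposited length, made up 18.9% to 20.02% in IRF1-KO pools and 30.4%, 21.7% and 20.12% in WT replicates 1 to 3 (not tested). The nearest pools, IRF1-KO replicate 2 and WT replicate 3, were almost equal. CXCL2 made up 24.6% of the sum in IRF1-KO replicate 3, against 12.8% and 10.1% in the other IRF1-KO pools and 9.89% to 15.0% in WT pools.

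The 5 CXC genes also share a place. They lie with CXCL6 and 3 genes that did not pass the filter on low counts (PF4V1, PF4 and PPBP) in 358.7 kb of chromosome 4 (GRCh38, 73740541 to 74099196). CXCL6, a neutrophil attractant next to CXCL8 and not among the 10, had 49.7, 40.9 and 5.47 CPM in IRF1-KO replicates 1 to 3, against 27.0, 32.1 and 44.8 CPM in WT (log2 fold change −0.12 ± 0.69, SE; edgeR adjusted p = 0.977). All 6 tested genes of the cluster were lowest in IRF1-KO replicate 3. Within 1000 kb on either side, 3 of 7 tested genes were lowest there as well, and all 3 encode ligands of the EGF receptor. EREG had 621, 796 and 313 CPM in IRF1-KO replicates 1 to 3, against 553, 499 and 585 CPM in WT. AREG had 174, 287 and 144 CPM in IRF1-KO, against 195, 164 and 171 CPM in WT, and BTC 10.8, 17.8 and 10.1 CPM in IRF1-KO, against 13.2, 16.2 and 14.1 CPM in WT. The flanking genes were looked at after the values of the cluster were seen.

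**Figure D4:**
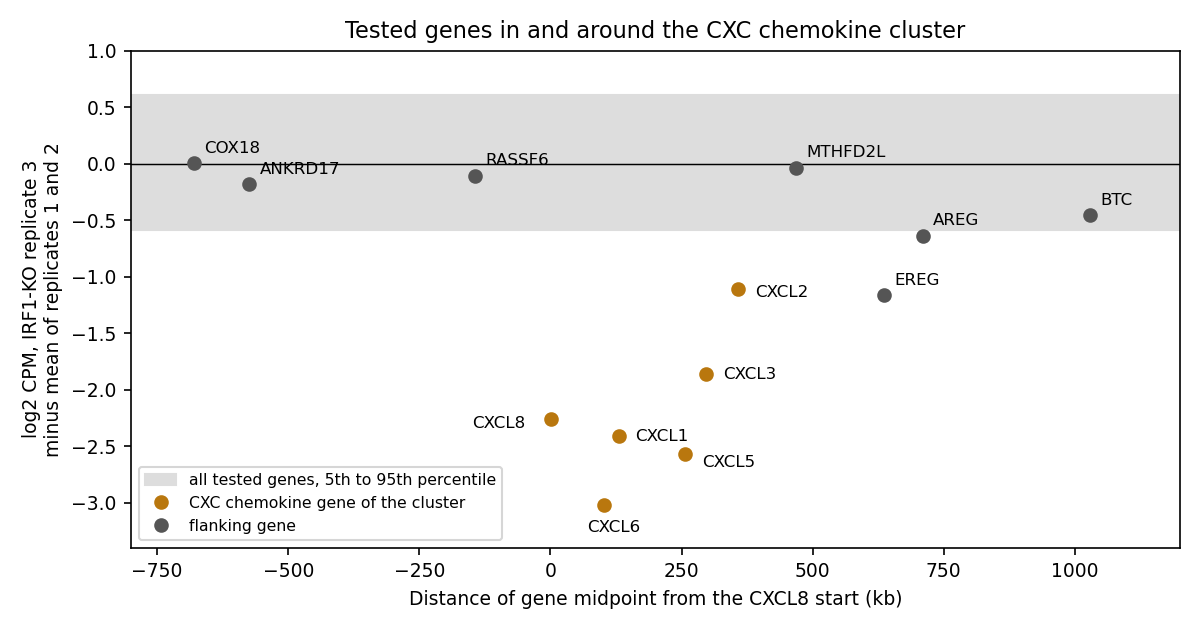
Log2 CPM of IRF1-KO replicate 3 minus the mean of IRF1-KO replicates 1 and 2 (vertical axis) for the tested genes in the CXC chemokine cluster (orange) and within 1000 kb of it (grey), by distance from the CXCL8 start in kb; the band covers the 5th to 95th percentile of all tested genes (−0.58 to 0.61). The cluster genes lie between −3.02 and −1.11, and among flanking genes EREG (−1.17) and AREG (−0.64) lie below the band.

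Genes most like CXCL8 over the 6 libraries were TTI2 (Pearson r = 0.991 of log2 CPM), TBL1XR1 (0.989) and SUPT3H (0.988), of 12090 genes with a mean of at least 2 CPM. Among chemokine genes the likeness to CXCL8 was highest for CXCL3 (r = 0.957, rank 30), then CXCL5 (0.936), CXCL2 (0.899) and CXCL1 (0.892), and it was −0.54 for CX3CL1. Genes most like CXCL10 were LURAP1L (r = 0.987), SAMD1 (0.980) and GRINA (0.977). CXCL5 was the nearest (0.784, rank 336) among those of the 10 chemokine genes with a mean of at least 2 CPM. CXCL10 itself was below that mean, with 8 to 47 counts per library and the most in IRF1-KO replicate 2. These values rest on 6 libraries and 1 scaling, and IRF1-KO replicate 3 weighs heavily on those of CXCL8.

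Of 37 other chemokine ligand genes, 36 were in the table and 4 were tested, with none past the threshold (median log2 fold change −0.36). CXCL16, a transmembrane chemokine that binds CXCR6, had 12.4, 20.9 and 15.1 CPM in IRF1-KO replicates 1 to 3, against 30.1, 30.4 and 13.7 CPM in WT (−0.61 ± 0.33, SE; edgeR adjusted p = 0.670). CCL28, a mucosal chemokine, had 15.4, 7.05 and 0.974 CPM in IRF1-KO, against 7.72, 43.4 and 1.06 CPM in WT, with pools of either group far apart (−1.17 ± 1.30; edgeR adjusted p = 0.862). In IRF1-KO replicate 3 all 4 tested genes of this list lay below the mean of the other IRF1-KO pools. The median difference was −2.76 in log2 CPM, and that of CXCL16 was −0.099. CXCL9, the third CXCR3 ligand beside CXCL10 and CXCL11, had 1, 6 and 1 counts in IRF1-KO and 2, 3 and 0 counts in WT. Of 23 chemokine receptor genes, 3 were tested, all with overlapping groups. CCR1 had 0.488, 2.16 and 1.54 CPM in IRF1-KO, against 2.02, 2.88 and 1.83 CPM in WT (−0.65 ± 0.51, SE; edgeR adjusted p = 0.788), and CXCR4, the CXCL12 receptor, had 8.60, 8.83 and 6.85 CPM in IRF1-KO, against 12.2, 6.69 and 10.1 CPM in WT (−0.26 ± 0.25, SE; edgeR adjusted p = 0.834).

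On the NF-kappaB side, 17 of 17 genes of subunits, feedback and mRNA decay were tested and none was past the threshold; 2 were lower and 1 higher at an unadjusted p under 0.05, against 9.14% of all tested genes in either direction. Their median log2 fold change was −0.12. TNFAIP3, the feedback inhibitor A20, had 44.0, 58.3 and 26.8 CPM in IRF1-KO replicates 1 to 3, against 82.7, 69.9 and 59.6 CPM in WT, with no overlap (−0.72 ± 0.27, SE; edgeR adjusted p = 0.486). NFKB1, which encodes the p105 precursor of p50, had 71.6, 66.7 and 59.6 CPM in IRF1-KO, against 75.3, 80.1 and 85.7 CPM in WT, also with no overlap (−0.29 ± 0.11, edgeR adjusted p = 0.513). In this list 2 genes had every IRF1-KO library below every WT library and 1 above, against 14.8% without overlap over all tested genes. In IRF1-KO replicate 3, 14 of the 17 genes lay below the mean of the other IRF1-KO pools. Their median difference was −0.33, against −0.0038 over all tested genes, and was smaller in size than that of any CXC gene of the cluster.

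On the interferon side, 7 of 8 transcription factor genes were tested. None was past the threshold with edgeR; at an unadjusted p under 0.05, 4 were lower and 1, IRF1, was higher, against 9.14% of all tested genes in either direction. IRF1 had a log2 fold change of 0.51 ± 0.10 (edgeR adjusted p = 0.135; DESeq2 adjusted p = 0.0011). Of 4 genes of chemokine-cleaving proteases none was past the threshold with edgeR. CTSS, the gene of cathepsin S, had 8.96, 11.6 and 12.6 CPM in IRF1-KO, against 32.3, 54.9 and 17.1 CPM in WT (−1.65 ± 0.40, edgeR adjusted p = 0.220, DESeq2 adjusted p = 0.0014). Its groups did not overlap, nor did those of 14.8% of all tested genes. ADAM10, which sheds CX3CL1 and CXCL16, had 277, 256 and 226 CPM in IRF1-KO, against 295, 403 and 263 CPM in WT (−0.34 ± 0.17; edgeR adjusted p = 0.638).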

How the data were processed

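Poly(A)-selected RNA of 6 clone pools was sequenced. The deposited values are raw counts per gene, whole numbers in the layout of featureCounts, per the file headers; featureCounts 0.6.1, edgeR 3.2.2 and GRCh38 (hg38) are named in the submitters' processing notes. Aligner, annotation and strand setting: not given in the sources used here. Other cell lines of the study were not analysed here.

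Counts were filtered with filterByExpr, scaled with TMM and tested with edgeR 4.0.16 (R 4.3.3; robust quasi-likelihood F test, two-sided) over 13388 genes, with Benjamini-Hochberg adjustment and a threshold of 0.05. Standard errors and 95% intervals are those implied by the F statistic. TPM were computed from counts and the exon lengths in the file. Log2 CPM for SDs, differences and likeness used a prior count of 2. Symbols of 19342 genes came from a table of current names and 56 from GENCODE 29. No pair of libraries of a group agreed within sampling noise (chi-square per degree of freedom 27.1 to 57.2). The procedure was tested on simulated counts. The alternatives tried were upper-quartile or RLE scaling, a stricter filter (5 CPM in 3 libraries) or none, DESeq2 1.42.0, limma-voom (limma 3.58.1), the replicate number as a block, a GC correction (spline with 5 degrees of freedom), both together, leaving out each library, a threshold of 0.01, and CX3CL1 in either class. The members, lists, tests and alternatives were chosen with earlier results of these data known. Named were IRF1, the 10 chemokine genes, for each list the genes past the threshold and the 2 with the smallest p, and the 3 genes most like CXCL8 and CXCL10; 1 gene that the rule names is not reported here. The genes CXCL6, CXCL9, CXCL14, CCL26, PPBP, EREG, AREG and BTC were named after their values were seen.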

Additional observations from a re-analysis of the deposited data

How the results depend on the processing

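No chemokine gene was past the threshold in any of the 15 alternative fits or at a threshold of 0.01, and the smallest adjusted p of any of them was 0.160 (CCL5 without WT replicate 1). Of 132 values of single chemokine genes under an alternative, 127 kept their direction and 5 turned it, all when a library was left out: over these 6 settings the log2 fold change ran from −0.52 to 0.23 for CXCL1, −0.77 to 0.028 for CXCL3, −0.91 to 0.38 for CXCL5 and −0.36 to 0.73 for CXCL10. The cause was not tested. The NF-kappaB-driven median ran from −0.84 to 0.0044 over the same settings. The interferon-driven median ran from −2.41 to −0.068 over these settings, but the range mixes gene sets. When WT replicate 2 or 3 was dropped, it rested on CXCL10 and CXCL11 alone (−0.068 and −0.64). Dropping any other library let CCL5 pass the filter, which made 3 genes. At −2.41, with IRF1-KO replicate 2 dropped, CXCL11 was −2.56 and CXCL10 −0.36, so the middle value was that of CCL5. With no filter, where CCL5 is also included, the median was −1.40. It was 0.39 with CX3CL1 counted in the class, and no member of the class passed the stricter filter. Over all genes 17 were past the threshold, 31 with no filter, 332 with DESeq2, 7 at a threshold of 0.01 and 3 to 91 without 1 library (3 without IRF1-KO replicate 1 or 3, 5 without WT replicate 2, 91 without WT replicate 3). Of the pathway lists, with 35 genes tested, 0 were past the threshold. With DESeq2 3 were past it, against 2.48% of all tested genes. Without 1 library 0 to 1 were past it (1 without WT replicate 1, and CTSS without WT replicate 3, edgeR adjusted p = 0.0409). Same-numbered libraries did not deviate together in every pair (correlations of −0.015, 0.25 and 0.057), and not every library correlated best with its own number, so the numbers were not taken to pair the pools. With the replicate block 31 genes were past the threshold, the NF-kappaB-driven median was −0.52 and the adjusted p of CXCL11 was 0.274. Depth limits CCL5, CCL20, CXCL10 and CXCL11, which had 2 to 78 counts per library.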

Other observations

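CXCL14, an epithelial chemokine, failed the filter on low counts and showed no overlap between groups, as was the case for 14.8% of the tested genes. It had 51, 172 and 12 counts in libraries labelled IRF1-KO (3.11, 6.004 and 0.449 CPM in replicates 1 to 3), against 7, 2 and 0 counts in WT (0.383, 0.109 and 0 CPM). The separation was narrow, with IRF1-KO replicate 3 (0.449 CPM) just above WT replicate 1 (0.383 CPM). With no filter on low counts, the edgeR adjusted p of CXCL14 was 0.363 (log2 fold change 4.28 ± 1.23, SE). The gene was singled out after its values were seen.

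PPBP, the gene of the platelet chemokine CXCL7 in the same cluster, had 75 counts (4.08 CPM) in WT replicate 2 and 0 to 2 counts in every other library. Of the 32 other chemokine ligand genes that were not tested, 14 had no count in any library and 29 stayed under 1 CPM throughout.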
